A study of Mus musculus with 9 samples.

Results

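The 9 genes described here belong to the programme that turns tissues from glucose to fat as fuel under the control of the peroxisome proliferator-activated receptors (PPARs). They are the receptor genes Ppara and Ppard, the fasting genes Pdk4 and Angptl4, the acyl-CoA thioesterase genes Acot1 and Acot2, the carnitine shuttle genes Cpt1a and Cpt1b, and the uncoupling protein gene Ucp3. They were taken by gene symbol from the 24421 symbols of each count table, all 9 were present, and all 9 passed the filters on low counts. RNA sequencing had been done on 9 mouse libraries, 2 of kidney and 7 of muscle, for a study of cachexia (tumour-associated wasting) and of DKK1, a secreted Wnt inhibitor that acts through the co-receptor LRP6. The kidney libraries were 1 from a tumour-bearing animal given PBS and 1 from a wild type animal given PBS. The muscle libraries were 1 each of tumour-bearing animals given MDC, tumour-bearing animals given PBS, animals labelled beta-arrestin knockout and given DKK1, animals labelled beta-arrestin knockout and given PBS, wild type animals given DKK1, and 2 of wild type animals given PBS. MDC is named by these letters alone, and the labels state neither the tumour, the strain, the age, which muscle was taken nor which arrestin gene was deleted.

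PPAR alpha and PPAR delta are nuclear receptors that bind fatty acids and switch on the genes of fatty acid uptake, transport and oxidation, PPAR alpha above all in liver, kidney and heart during fasting and PPAR delta in skeletal muscle. Glucocorticoids and FoxO factors act on several of the same genes, Pdk4 and Angptl4 among them. In skeletal muscle Pdk4 is known to be raised by fasting.

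Depth was 44421797 counts in tumour kidney and 42480786 counts in wild type kidney, and 21358854 to 32607835 counts per muscle library. Letters in the table names place kidney in set A, the tumour MDC, tumour PBS and first wild type PBS libraries of muscle in set B, and the other 4 muscle libraries in set C. The labelled tissues held their markers, with 8 skeletal muscle genes summing to 106 and 147 CPM (counts scaled by library size) in tumour and wild type kidney, against 46933 to 116511 CPM in muscle. The 2 wild type PBS muscle libraries stood far apart, with slow fibre markers summing to 49.6 CPM in library 1 and 699 CPM in library 2, and adipocyte markers to 131 and 1014 CPM. Nothing states that libraries came from separate animals, so p-values measure only the spread between these samples, and every group other than wild type PBS muscle had 1 library and no replicate check.

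Promoter sequence from RefSeq (GRCm38.p6, 250 bases before to 50 after the start site) was at hand for 7 of the 9 genes, Angptl4 and Cpt1b being the other two. Those of Ucp3, Pdk4 and Cpt1a are shown because these genes differed most between the tissues below. Capitals mark the nuclear receptor core motif AGGTCA, or its reverse complement TGACCT.
Ucp3, chr7:100472741-100473040, plus strand: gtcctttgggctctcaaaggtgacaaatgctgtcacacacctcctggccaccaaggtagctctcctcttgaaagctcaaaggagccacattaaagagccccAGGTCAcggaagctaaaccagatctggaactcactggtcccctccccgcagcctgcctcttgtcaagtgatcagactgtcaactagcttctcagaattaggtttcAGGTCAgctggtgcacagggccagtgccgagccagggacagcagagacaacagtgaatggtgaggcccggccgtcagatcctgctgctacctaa
Pdk4, chr6:5496229-5496528, minus strand: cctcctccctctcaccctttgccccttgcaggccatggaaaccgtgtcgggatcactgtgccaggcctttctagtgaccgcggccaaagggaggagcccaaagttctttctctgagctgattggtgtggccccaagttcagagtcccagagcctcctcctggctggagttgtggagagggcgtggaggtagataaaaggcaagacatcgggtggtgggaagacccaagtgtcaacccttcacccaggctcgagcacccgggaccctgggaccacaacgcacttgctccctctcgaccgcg
Cpt1a, chr19:3323051-3323350, plus strand: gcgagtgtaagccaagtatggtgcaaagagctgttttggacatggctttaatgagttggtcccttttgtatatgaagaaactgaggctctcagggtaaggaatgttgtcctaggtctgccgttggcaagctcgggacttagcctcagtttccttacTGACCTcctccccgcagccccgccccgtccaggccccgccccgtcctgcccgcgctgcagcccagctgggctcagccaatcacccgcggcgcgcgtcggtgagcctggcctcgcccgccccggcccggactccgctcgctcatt

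The core motif stood at -149 and -44 from the start site of Ucp3 and at -94, on the minus strand, of Cpt1a, and in none of the 5 other promoters. It was present on either strand in 16.3% of 32851 promoters of the same length. The full PPAR element AGGTCANAGGTCA was in 0.0396% of those promoters and the glucocorticoid response element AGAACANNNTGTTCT in 0.00913%, and neither was in the windows of the 7 genes. These are letter matches, not measured binding.

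In wild type animals the genes divided by tissue. Ucp3, Pdk4 and Cpt1b were muscle genes, Cpt1a and Acot1 were kidney genes, and Angptl4, Acot2, Ppard and Ppara did not pass the test between tissues. With levels corrected for gene length, Pdk4 stood at 8.16 CPM per kilobase in kidney against 122 ± 14.6 CPM per kilobase in muscle (SD, n = 2), and Ucp3 at 0.579 in kidney against 73.7 ± 24.0 CPM per kilobase in muscle. Cpt1a, the liver-type carnitine palmitoyltransferase, was at 138 CPM per kilobase in kidney against 4.998 ± 0.164 in muscle, whereas its muscle-type paralogue Cpt1b was at 10.8 in kidney against 107 ± 18.4 CPM per kilobase in muscle. The pair was therefore split between tissues, with Cpt1a the highest of the 9 genes in kidney. These levels were scaled within each tissue, so their ratios differ from the changes in the fit to all 9 libraries below. Scaled within tissues, Pdk4 was at 28.2 CPM in wild type kidney against 456 and 384 CPM in wild type PBS muscle. Scaled over all 9 libraries, it was at 21.5 CPM against 480 and 415 CPM.

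In muscle the order by level per kilobase was Pdk4, Cpt1b, Ucp3, Acot2, Ppard, Angptl4, Cpt1a, Ppara and Acot1. The wild type libraries overlapped between the neighbours Pdk4 and Cpt1b, between Ppard and Angptl4, and between Ppara and both of its neighbours. In kidney the order was Cpt1a, Acot1, Ppara, Acot2, Angptl4, Cpt1b, Pdk4, Ppard and Ucp3.

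**Figure D1:**
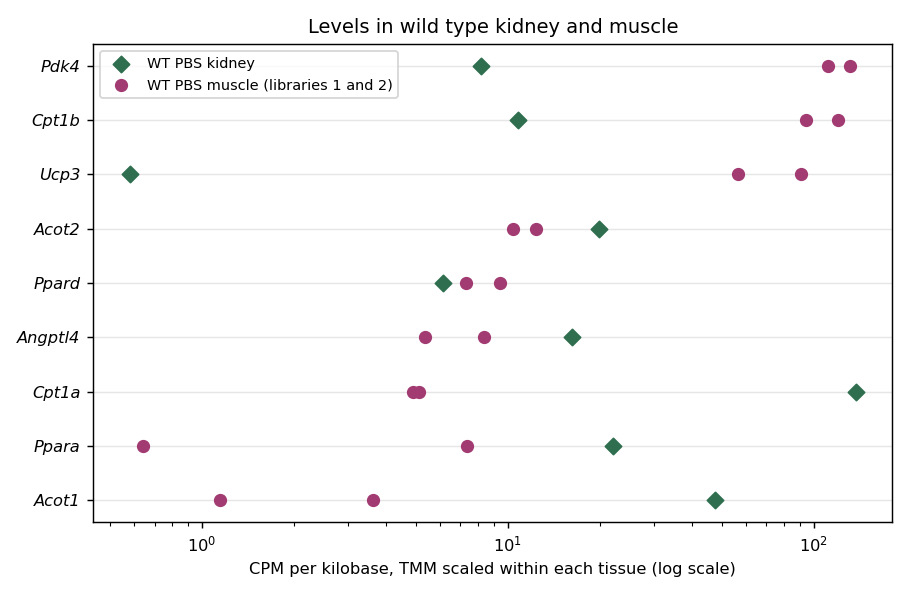
Level of each of the 9 genes in wild type kidney (diamonds, 1 library) and wild type muscle (circles, 2 libraries), in CPM per kilobase, scaled within each tissue, on a log axis. Cpt1a lies to the right in kidney at 138, Ucp3 far to the left at 0.579, and the circles of Ppara lie far apart.

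A fit to all 9 libraries with edgeR's quasi-likelihood test called 5 of the 9 genes between wild type kidney and wild type muscle, where 13.2% of 16811 genes were called at a Benjamini-Hochberg adjusted p under 0.05. Ucp3 fell by 7.47 on the log2 scale in kidney (SE 0.98, edgeR adjusted p = 0.00237) and Pdk4 by 4.38 (SE 0.88, edgeR adjusted p = 0.0134). Cpt1b fell by 3.80 (SE 0.82, edgeR adjusted p = 0.0179). Cpt1a was higher in kidney at a log2 change of 4.30 (SE 0.61, edgeR adjusted p = 0.00303) and Acot1 at 3.82 (SE 0.77, edgeR adjusted p = 0.0136). Ppara was at 1.96 (SE 1.09, edgeR adjusted p = 0.316), Angptl4 at 0.75 (SE 0.62), Acot2 at 0.32 (SE 0.58) and Ppard at -0.93 (SE 0.62), none of which passed. The single kidney library was assumed to vary like the wild type muscle pair. Of 22 measured peroxisomal and other PPAR targets, 13 were at least 2-fold higher in kidney and 1 lower (median log2 1.88, against 0.05 over all genes), led by the omega-hydroxylase genes Cyp4a10 and Cyp4a12a and the peroxisomal thioesterase gene Acot3 at 8.79, 8.70 and 8.25. Of 16 fasting and glucocorticoid responsive genes, 6 were lower and 0 higher, with the ubiquitin ligase gene Fbxo32 at -5.75. By the same rule, which also asks for at least 100 counts in the higher library, 19.4% of 16811 genes were higher in kidney and 10.7% lower.

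Of the receptors, Ppard (chromosome 17, 28232700 to 28301474, GRCm38), the receptor that predominates in muscle fibres, varied little across the muscle libraries. It was at 33.1 CPM in tumour MDC, 27.9 in tumour PBS, 31.6 in knockout-labelled DKK1, 27.6 in knockout-labelled PBS, 33.5 in wild type DKK1, and 23.5 and 30.3 in wild type PBS muscle. Its highest library was 1.42-fold above its lowest, the smallest such ratio of the 9 genes, and in kidney it was at 18.1 CPM in tumour and 19.8 CPM in wild type.

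Ppara (chromosome 15, 85734983 to 85802819) separated by set. It was at 8.40 CPM in tumour MDC, 11.03 in tumour PBS, 41.6 in knockout-labelled DKK1, 23.6 in knockout-labelled PBS, 47.8 in wild type DKK1, and 4.83 and 55.6 CPM in wild type PBS libraries 1 and 2. The 4 libraries of set C (23.6 to 55.6 CPM) all lay above the 3 of set B (4.83 to 11.03 CPM), and the wild type pair alone spanned an 11.5-fold difference. Ppara was the 1 gene of the 9 whose sets did not overlap, and 15% of 15482 genes lay above in set C in the same way and 17.6% below. The tumour labels occur only in set B and the DKK1 and knockout labels only in set C, while wild type PBS is in both. Within set B, tumour PBS was at 2.28-fold and tumour MDC at 1.74-fold the level of wild type library 1.

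**Figure D2:**
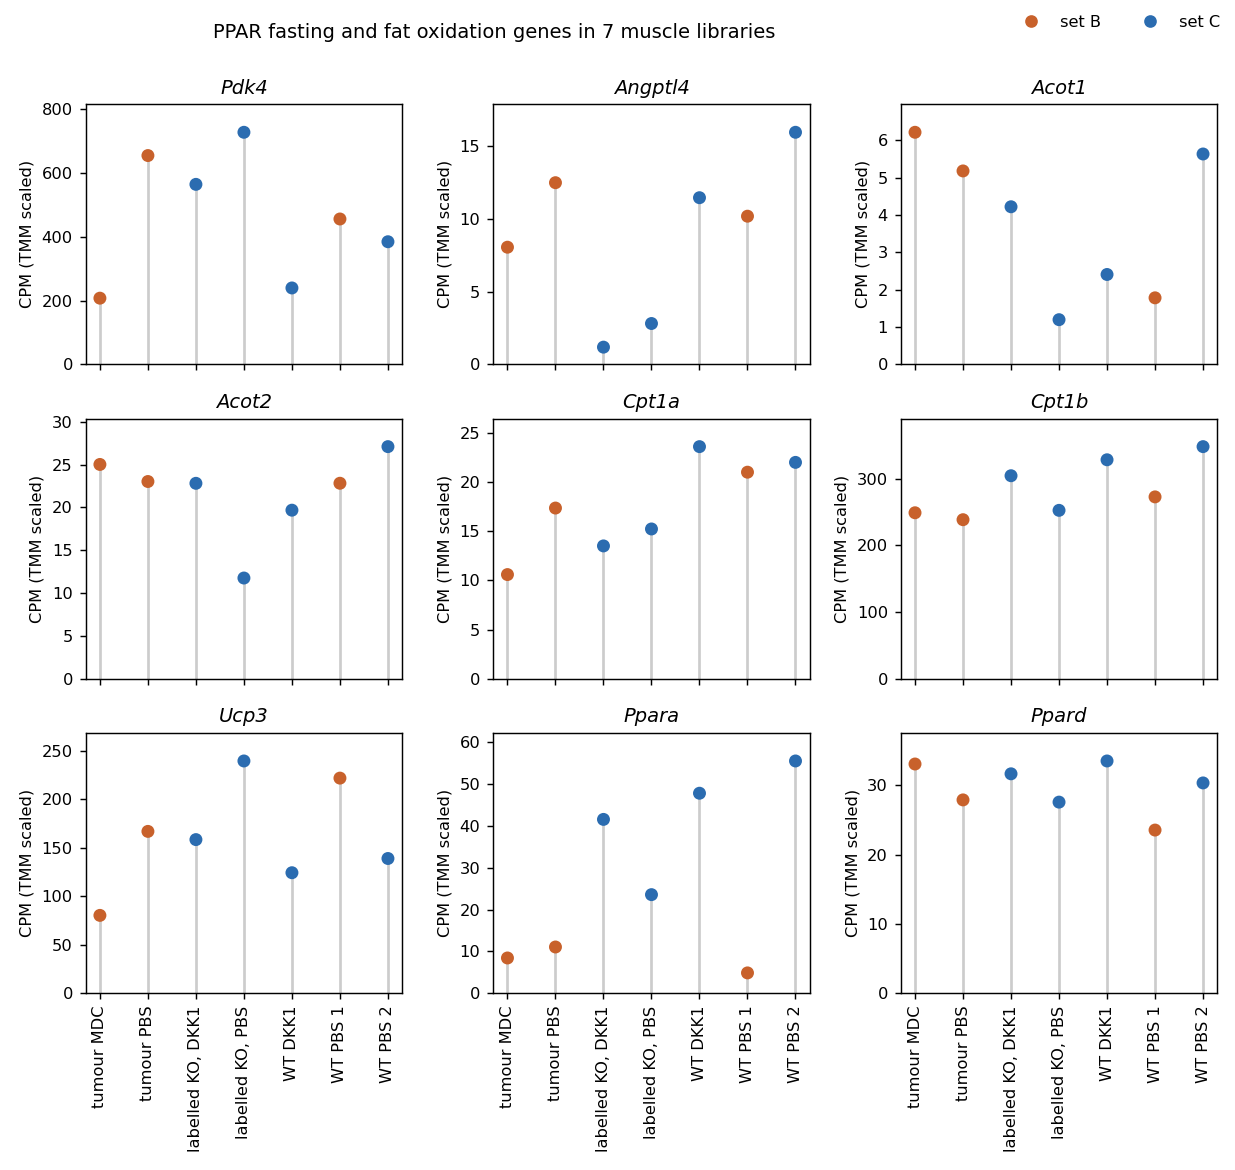
Level of each gene in the 7 muscle libraries (CPM after TMM scaling, linear axes from 0), 1 point per library, coloured by set. Pdk4 and Ucp3 are lowest in tumour MDC, Angptl4 is lowest in both knockout-labelled libraries, and Ppara separates by set.

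The tumour comparison asked how the energy programme differed in muscle of tumour-bearing animals. None of the 9 genes was past 2-fold against both wild type PBS libraries in tumour PBS muscle. Pdk4 (chromosome 6, 5483351 to 5496309), the kinase that shuts pyruvate dehydrogenase and so spares glucose, was at 654 CPM in tumour PBS against 456 and 384 CPM in wild type PBS muscle. The tumour library was above both, by 1.44-fold and 1.70-fold, with a log2 change of 0.64 (SE 0.74). Angptl4, a secreted inhibitor of lipoprotein lipase, was at 12.5 CPM in tumour PBS, between the wild type values of 10.2 and 15.9 CPM. Ucp3 (chromosome 7, 100472990 to 100486432), a mitochondrial carrier of muscle that follows fatty acid supply, was at 167 CPM in tumour PBS, between 222 and 139 CPM in wild type PBS muscle.

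The transport genes were below both wild type libraries by small amounts. Cpt1a was at 17.4 CPM in tumour PBS against 21.0 and 22.0 CPM in wild type PBS muscle, and Cpt1b at 239 CPM in tumour PBS against 273 and 348 CPM in wild type PBS. Their log2 changes were -0.31 (SE 0.64) and -0.38 (SE 0.73). The thioesterases, which release free fatty acid from acyl-CoA, overlapped wild type: Acot1 (cytosolic) was at 5.18 CPM in tumour PBS against 1.78 and 5.63 CPM in wild type PBS, and Acot2 (mitochondrial) at 23.03 CPM in tumour PBS against 22.8 and 27.1 CPM in wild type PBS muscle.

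Against wild type library 1 alone, which is in set B with the tumour libraries, Acot1 was at 2.91-fold (176 against 38 counts) and Pdk4 at 1.44-fold in tumour PBS, while Acot1 was at 0.919-fold against library 2.

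By size, meaning a change of 2-fold or more with at least 100 counts in the higher library and against each wild type library, 0 of 9 genes were higher or lower where 0.969% of 15482 genes were higher and 0.297% lower. In this comparison edgeR made 0 calls among 15482 genes (165 had an unadjusted p below 0.05), and DESeq2 called 8 higher and 4 lower, none of them among the 9. Of 16 fasting and glucocorticoid responsive genes, 4 were higher by size in tumour PBS muscle, led by Lcn2 (siderophore binding) at a log2 change of 3.51 and the metallothionein genes Mt2 and Mt1 at 3.01 and 2.26. Fbxo32 and Trim63, the muscle atrophy ligases on the same list, were not past the size rule. Lcn2 is also a neutrophil granule gene, and 8 neutrophil markers summed to 335 CPM in tumour PBS muscle against 14.2 and 4.71 CPM in wild type PBS muscle. The part of neutrophils in these changes was not tested. Of 15 beta oxidation genes 0 were past it, with a median log2 change of -0.43 against -0.04 over all genes.

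MDC was compared with PBS in tumour-bearing animals, both libraries in set B, and Pdk4 and Ucp3 were past 2-fold lower in tumour MDC, with 1 library per group and no call by either tool. Pdk4 was at 208 CPM in tumour MDC against 654 CPM in tumour PBS, a ratio of 0.317 (95% counting interval 0.307 to 0.327), the lowest level of the 7 muscle libraries. Ucp3 was at 80.2 CPM in tumour MDC against 167 CPM in tumour PBS, a ratio of 0.481 (0.455 to 0.507), also the lowest of the 7. Cpt1a was at 10.6 CPM in tumour MDC against 17.4 CPM in tumour PBS, a ratio of 0.610 (0.523 to 0.711), and Angptl4 at 8.04 CPM in tumour MDC against 12.5 CPM in tumour PBS, a ratio of 0.645 (0.539 to 0.770). Cpt1b was at 249 CPM in tumour MDC against 239 CPM in tumour PBS, and Ppard, Acot1 and Acot2 had ratios of 1.19, 1.20 and 1.09.

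Pdk4 and Ucp3 were the 2 of 9 genes lower by size and 0 were higher, where 2.4% of 15482 genes were lower and 0.84% higher. edgeR and DESeq2 made 0 calls among 15482 genes, and 38 had an unadjusted edgeR p below 0.05. Pdk4 had a log2 change of -1.66 (SE 0.90) and Ucp3 of -1.06 (SE 0.81), and the edgeR adjusted p of every one of the 9 genes was 1. These intervals cover counting error only, and in bulk tissue fewer cells of a type and less RNA per cell cannot be told apart. Beside Pdk4 and Ucp3, all 8 slow fibre markers were higher by size in tumour MDC (summed 1509 CPM in tumour MDC against 251 CPM in tumour PBS), and 8 of 10 adipocyte markers were lower (186 CPM in tumour MDC against 472 CPM in tumour PBS). All 8 neutrophil markers were lower (41.0 CPM in tumour MDC against 335 CPM in tumour PBS), as were 5 of 10 macrophage markers (148 CPM in tumour MDC against 286 CPM in tumour PBS). Their part in the result was not tested.

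Among companion genes, 4 of 16 fasting and glucocorticoid responsive genes were lower by size in tumour MDC, led by Lcn2, Mt2 and the FoxO gene Foxo3 at log2 changes of -2.66, -2.05 and -1.55. Foxo3 was low throughout set B, with 28 counts in tumour MDC and 125 counts in tumour PBS. Wild type PBS library 1 had 9 counts of Foxo3 (0.42 CPM), below tumour MDC at 1.25 CPM. Pparg, the receptor of fat cells, and the PPAR target Pex11a were also lower by size. Of 15 beta oxidation genes and 15 uptake and shuttle genes, 0 were past the rule.

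Set against wild type PBS, Pdk4 in tumour MDC was at 0.455-fold and 0.540-fold the level of wild type libraries 1 and 2. Ucp3 was at 0.361-fold and 0.577-fold, and Cpt1a at 0.504-fold and 0.481-fold. All 3 lay below both wild type libraries, but none was past 2-fold against each, and 0 of 9 genes passed the size rule where 0.504% of genes were higher and 0.478% lower. That count of 0 lower became 1 with DESeq2's size factors, 2 with total counts and 1 without the filter on low counts. The median log2 change of the 9 genes was -0.70 against -0.04 over all genes. edgeR called 0 genes (231 with unadjusted p below 0.05) and DESeq2 11, none among the 9. This comparison and those of tumour PBS, wild type DKK1 and knockout-labelled PBS share the same 2 wild type PBS libraries. Pdp2, the phosphatase that opposes the Pdk kinases, was the 1 companion gene past the rule at -1.20.

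DKK1 was compared with PBS in wild type muscle, and again 0 of 9 genes were past the size rule, where 1.78% of genes were higher and 0.2% lower. Pdk4 was at 240 CPM in wild type DKK1 against 456 and 384 CPM in wild type PBS, below both, and its log2 change was -0.81 (SE 0.79). Ucp3 was at 124 CPM in wild type DKK1 against 222 and 139 CPM in wild type PBS, also below both. Cpt1a was at 23.6 CPM in wild type DKK1 against 21.0 and 22.0 CPM in wild type PBS, and Angptl4 at 11.4 CPM in wild type DKK1 lay between the wild type PBS values of 10.2 and 15.9 CPM. Cpt1b at 329 CPM, Acot1 at 2.41 CPM and Ppara at 47.8 CPM also lay between the wild type values, and Acot2 at 19.7 CPM lay below both. edgeR called 0 genes (206 with unadjusted p below 0.05) and DESeq2 4, none among the 9. Fbxo32 was the 1 companion gene past the rule, with a log2 change of -1.59 and 93.4 CPM in wild type DKK1 against 346 and 216 CPM in wild type PBS.

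The knockout-labelled libraries are read with their target genes first. Arrb1 was at 28.2 CPM in knockout-labelled DKK1 and 20.5 CPM in knockout-labelled PBS, against 22.1 CPM in wild type DKK1 and 17.3 and 20.3 CPM in wild type PBS. Arrb2 was at 7.98 CPM in knockout-labelled DKK1 and 9.61 CPM in knockout-labelled PBS, against 8.32 CPM in wild type DKK1 and 7.59 and 7.86 CPM in wild type PBS. For neither gene were both knockout-labelled libraries below all 3 wild type ones, whole-gene counts do not show the loss of an exon, and the label is used here only as a name.

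Angptl4 (chromosome 17, 33773750 to 33781830) gave the largest difference of the 9 genes in these libraries. It was at 1.18 CPM (39 counts) in knockout-labelled DKK1 and 2.81 CPM (68 counts) in knockout-labelled PBS, against 11.4 CPM in wild type DKK1 and 10.2 and 15.9 CPM in wild type PBS. Both lay below all 5 other muscle libraries, the lowest of which was tumour MDC at 8.04 CPM, and no other gene of the 9 separated in this way, where 8.67% of 15482 genes lay below and 9.26% above. Under DKK1 the ratio to wild type was 0.103 (95% counting interval 0.0726 to 0.144), and under PBS it was 0.276 and 0.176 against wild type libraries 1 and 2. Its log2 changes in the fit to 7 libraries were -3.27 (SE 0.96) and -2.22 (SE 0.85), and neither passed.

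Pdk4 went the other way and was at 564 CPM in knockout-labelled DKK1 and 727 CPM in knockout-labelled PBS, against 240 CPM in wild type DKK1 and 456 and 384 CPM in wild type PBS. Under DKK1 its ratio was 2.36 (2.30 to 2.41), and under PBS it was 1.60 and 1.89. Ucp3 was at 159 CPM in knockout-labelled DKK1 and 240 CPM in knockout-labelled PBS, against 124 CPM in wild type DKK1 and 222 and 139 CPM in wild type PBS. Cpt1a was at 13.5 CPM in knockout-labelled DKK1 and 15.2 CPM in knockout-labelled PBS, against 23.6 CPM in wild type DKK1 and 21.0 and 22.0 CPM in wild type PBS. For Cpt1a both knockout-labelled libraries were below all 3 wild type ones. In the fit to 7 libraries Angptl4 was the 1 gene of 9 lower by size in knockout-labelled PBS against wild type PBS, where 0.439% of genes were lower and 0.536% higher. In knockout-labelled DKK1 against wild type DKK1, Angptl4 was lower and Pdk4 higher, where 7.6% of genes were lower and 2.02% higher. edgeR called 0 genes in either comparison (182 and 218 with unadjusted p below 0.05), and DESeq2 called 19 and 14, none among the 9.

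The spread in that fit comes from the wild type PBS pair, whose libraries are in different sets, so a fit to the 4 libraries of set C alone, with additive terms for the knockout label and DKK1, was added after the data were seen. It took its 1 residual degree of freedom from those libraries and had a biological coefficient of variation of 0.176, against 0.498 for the 7 libraries. edgeR called 4 of the 9 genes for the knockout label, where 17.8% of 15097 genes were called (1047 higher and 1643 lower, or 414 and 2448 when libraries were scaled by total counts). Angptl4 fell by 2.88 on the log2 scale (SE 0.26, edgeR adjusted p = 0.00112) and Cpt1a by 0.68 (SE 0.15, edgeR adjusted p = 0.0211). Pdk4 rose by 1.07 (SE 0.15, edgeR adjusted p = 0.00488) and Ucp3 by 0.56 (SE 0.16, edgeR adjusted p = 0.0477). The call on Ucp3 was lost when libraries were scaled by total counts (adjusted p = 0.21) and that on Cpt1a with DESeq2 (adjusted p = 0.0593).

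The other 5 genes did not pass, with Ppara at -0.72 (SE 0.24, edgeR adjusted p = 0.073), Acot1 at -0.61 (SE 0.67), Acot2 at -0.48 (SE 0.30), Cpt1b at -0.30 (SE 0.15) and Ppard at -0.12 (SE 0.13). Ppara passed with total counts, with no filter on low counts and with DESeq2 (adjusted p = 0.0158, 0.0167 and 0.0413). With 1 library per cell of this design, additivity of label and DKK1 is assumed, and the label cannot be told apart from a difference between single animals.

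**Figure D3:**
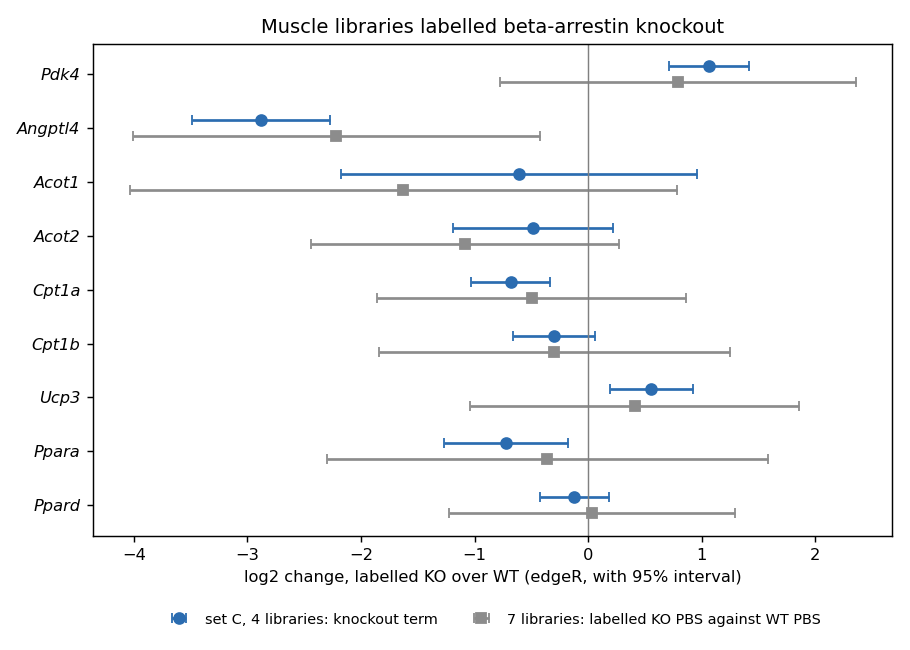
Log2 change of each gene, knockout-labelled over wild type muscle, with 95% intervals from edgeR: circles are the knockout term in the 4 libraries of set C, squares are PBS libraries in the fit to 7 libraries. Angptl4 lies at -2.88 and Pdk4 at 1.07 in set C, and the intervals of the 7-library fit are wider for every gene.

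The knockout-labelled libraries also differed from the wild type libraries of set C in genes of other cell types. In the set C fit 10 of 10 adipocyte markers fell (median log2 -4.80), and 8 of 8 endothelial markers fell (-1.21). In the same fit 6 of 10 macrophage markers fell, and 8 of 10 fast fibre markers rose while 1 fell. In wild type PBS library 1, outside this fit, endothelial markers summed to 311 CPM, against 306 and 279 CPM in knockout-labelled DKK1 and PBS. Its macrophage sum of 86.4 CPM lay below both knockout-labelled libraries (215 and 317 CPM). Its fast fibre sum of 242432 CPM lay above both (127999 and 162194 CPM). Adipocyte markers summed to 42.6 CPM in knockout-labelled DKK1 and 45.8 CPM in knockout-labelled PBS, with the adipocyte receptor gene Adrb3 at 0 counts in the PBS library, against 742 CPM in wild type DKK1 and 131 and 1014 CPM in wild type PBS. Angptl4 is also made by adipocytes and endothelium, and it was lowest in the 2 libraries with the lowest adipocyte sums. Wild type DKK1, with a sum of 742 CPM, had Angptl4 at 11.4 CPM, against 10.2 CPM in wild type PBS library 1, where the sum was 131 CPM. The part of these markers in the change of Angptl4 was not tested.

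**Figure D4:**
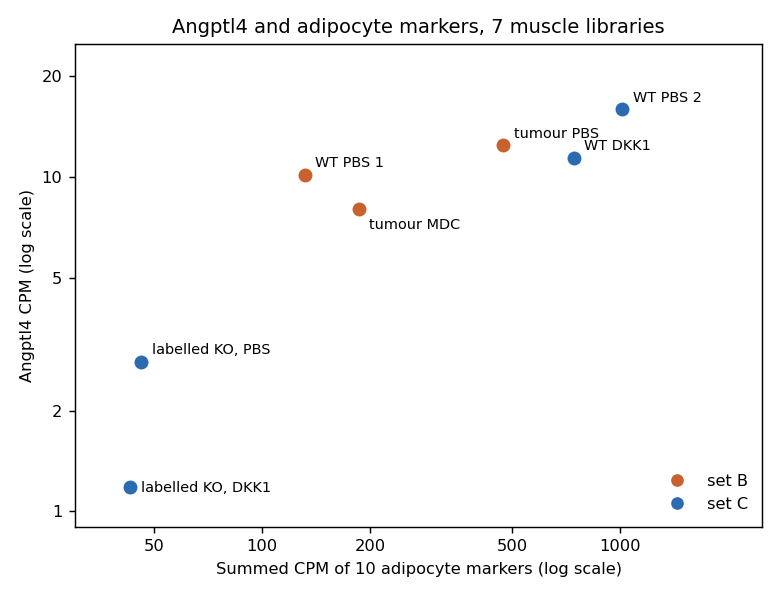
Angptl4 (CPM) against the summed level of 10 adipocyte markers (CPM) in the 7 muscle libraries, log axes, coloured by set. The knockout-labelled libraries lie at the lower left (1.18 and 2.81 CPM), and the other 5 lie between 8.04 and 15.9 CPM over sums of 131 to 1014 CPM.

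Companion genes were counted in the same fit. Of 15 uptake, activation and shuttle genes, 9 fell and 0 rose (median log2 -0.60, against -0.03 over all genes), led by the fatty acid carrier Fabp4 at -1.99, the fatty acid transporter Cd36 at -1.10 and the transport protein gene Slc27a1 at -1.002. Of 15 beta oxidation genes 4 fell and 0 rose, among them the thiolase gene Acaa2 at -0.73. Of 15 measured peroxisomal and other PPAR targets 5 fell and 0 rose, among them the lipid droplet gene Plin5 at -1.46 and the ketone-body dehydrogenase gene Bdh1 at -1.32. Of 10 receptor and partner genes Pparg, the receptor of fat cells, fell by 2.20 and Rxrg rose by 0.64. Of 8 kinase and uncoupler genes 2 fell, Ucp2 at -1.22 and Ucp1, the uncoupler of brown fat, which had 0 counts in both knockout-labelled libraries against 22 in wild type DKK1 and 10 and 90 in wild type PBS. Fabp4, Pparg and Cd36 are also expressed by adipocytes or endothelium, whose markers fell in the same fit. Wild type PBS library 1, outside this fit, lay below both knockout-labelled libraries for Cd36 (155 against 284 and 199 CPM), Slc27a1, Plin5 and Bdh1. It lay above both for Fabp4 (220 against 93.1 and 118 CPM), Acaa2, Pparg and Ucp2. For Rxrg, which rose in the fit, it also lay above both (93.0 against 50.1 and 56.6 CPM).

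The fasting and glucocorticoid list was divided in the same fit. The atrophy ligase genes Fbxo32 and Trim63 rose by 1.34 and 0.95, and Fkbp5, Mt2, Mt1 and Cdkn1a fell, at log2 changes of -1.13, -1.12, -0.99 and -0.67. Pdk4 rose with the ligases, of which Fbxo32 was at 384 and 341 CPM in knockout-labelled DKK1 and PBS, against 93.4 CPM in wild type DKK1 and 346 and 216 CPM in wild type PBS. The PBS value thus lay within the wild type pair. Trim63 was at 251 and 219 CPM in knockout-labelled DKK1 and PBS, against 247 CPM in wild type PBS library 1, which is outside this fit. That library lay below both knockout-labelled libraries for Fkbp5 (10.1 against 49.2 and 47.6 CPM), Mt2 and Cdkn1a. It lay above both for Mt1 (19.7 against 18.1 and 15.8 CPM).

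For DKK1, over both labels of set C, edgeR called 0 of the 9 genes, where 0.179% of 15097 genes were called and 1807 had an unadjusted p below 0.05. Pdk4 was at a log2 change of -0.51 (SE 0.15, edgeR adjusted p = 0.232), Angptl4 at -0.77 (SE 0.25, edgeR adjusted p = 0.289) and Ucp3 at -0.37 (SE 0.16, edgeR adjusted p = 0.412). All 3 were lower in the DKK1 library of both labels.

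In knockout-labelled DKK1 against knockout-labelled PBS, Acot1 (chromosome 12, 84009490 to 84018371) was the 1 gene of 9 higher by size, at 4.22 CPM in knockout-labelled DKK1 against 1.20 CPM in knockout-labelled PBS (139 and 29 counts), a ratio of 3.52 (95% counting interval 2.35 to 5.46). Its neighbour Acot2 (chromosome 12, 83987861 to 83993873) was at 22.8 CPM in knockout-labelled DKK1 against 11.8 CPM in knockout-labelled PBS, a ratio of 1.94 (1.69 to 2.23). By this rule 1.6% of genes were higher and 0.504% lower. edgeR called 0 genes (48 with unadjusted p below 0.05), as did DESeq2, and Acot1 in wild type muscle alone spanned 1.78 to 5.63 CPM. Of Acot1 and Acot2 transcript sequence, 13.6% and 24.5% of 50-base words were shared between the pair, so reads may have been split between them. Bdh1 and Ddit4 were companion genes past the rule, at log2 changes of 1.38 and 1.22, and all 8 slow fibre markers were higher by size as well (6302 CPM in knockout-labelled DKK1 against 140 CPM in knockout-labelled PBS).

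A test of the difference itself, the interaction of DKK1 and knockout label in the fit to 7 libraries, called 0 of 15482 genes with edgeR (44 with unadjusted p below 0.05), and DESeq2 called 3, none among the 9. Acot1 had the widest estimate of the 9, a log2 difference of 2.44 (SE 1.64), and Ppara one of 0.16 (SE 1.38).

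In kidney the tumour comparison had 1 library per group, so ratios are given without a test. Angptl4 was at 135 CPM in tumour kidney against 30.9 CPM in wild type kidney, a ratio of 4.36 (95% counting interval 4.11 to 4.64). Ucp3, near absent from kidney, was at 4.19 CPM in tumour kidney against 1.42 CPM in wild type kidney (187 and 60 counts), a ratio of 2.96 (2.20 to 4.03). Pdk4 was at 55.0 CPM in tumour kidney against 28.2 CPM in wild type kidney, a ratio of 1.95 (1.82 to 2.096).

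The thioesterases were higher by less. Acot1 was at 131 CPM in tumour kidney against 74.0 CPM in wild type kidney, a ratio of 1.77 (1.69 to 1.85), and Acot2 at 65.6 CPM in tumour kidney against 43.6 CPM in wild type kidney, a ratio of 1.503 (1.42 to 1.59). Cpt1b was at 39.7 CPM in tumour kidney against 31.2 CPM in wild type kidney, a ratio of 1.28 (1.19 to 1.37). Ppara was at 187 CPM in tumour kidney against 166 CPM in wild type kidney, a ratio of 1.13 (1.09 to 1.17). Ppara thus had a lower ratio than 6 of the other 8 genes. Cpt1a, the main shuttle gene of kidney, was at 537 CPM in tumour kidney against 593 CPM in wild type kidney, a ratio of 0.907 (0.891 to 0.923), and Ppard had a ratio of 0.913 with an interval of 0.828 to 1.01. The 4 highest ratios thus belonged to Angptl4, Ucp3, Pdk4 and Acot1, while Cpt1a and both receptors had ratios of 0.907 to 1.13.

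**Figure D5:**
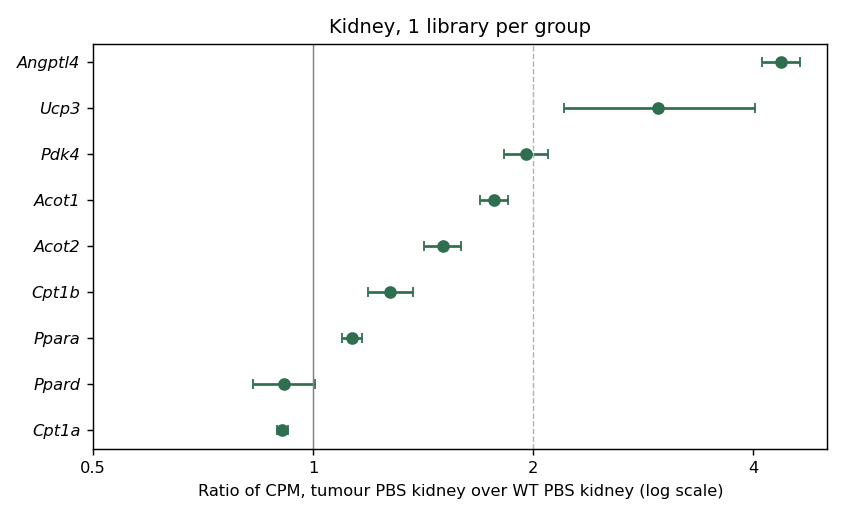
Ratio of CPM in tumour kidney over wild type kidney for each gene, log axis, 1 library per group, with 95% counting intervals. Angptl4 and Ucp3 lie beyond the dashed 2-fold line at 4.36 and 2.96, and the interval of Ppard spans 1.

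Angptl4 and Ucp3 were the 2 of 9 genes past 2-fold, where 4.64% of 15986 genes were higher and 3.3% lower by size, and the median log2 ratio of the 9 was 0.59 against 0.00 over all genes. Of 16 fasting and glucocorticoid responsive genes 10 were higher and 0 lower (median 1.21), with Lcn2 at 4.79 and Zbtb16, a glucocorticoid-induced transcription factor, at 4.51. Lcn2 is also a neutrophil granule gene, and the summed neutrophil markers given below were higher in tumour kidney too. Lcn2 alone was at 77.3 CPM in tumour kidney and 2.74 CPM in wild type kidney. The 8 neutrophil markers summed to 20.2 and 2.15 CPM there. The cell source of Lcn2 was not tested. Of 22 other PPAR targets 6 were higher and 1 lower, Cyp4a12a at -2.19 (214 CPM in tumour kidney against 973 CPM in wild type kidney). Of 15 uptake and shuttle genes 4 were higher, and of 15 beta oxidation genes 0 were higher and 1, the thiolase gene Acat1, was lower at -1.07. Of the receptor and coactivator genes Pparg was higher at 2.25 and Ppargc1b lower at -1.66.

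Markers of other cell types differed between the 2 kidney libraries, and bulk tissue does not tell cell number from RNA per cell. Of 10 adipocyte markers 8 were higher by size in tumour kidney (summed 4708 CPM in tumour kidney against 3355 CPM in wild type kidney), and without Pck1, which kidney tubules also express, they summed to 1193 CPM in tumour kidney against 118 CPM in wild type kidney. Of 9 proximal tubule markers 2 were lower (summed 10344 CPM in tumour kidney against 34152 CPM in wild type kidney). Most of that gap lay in Kap, at 2684 CPM in tumour kidney against 23805 CPM in wild type kidney, and without it the sums were 7659.8 CPM in tumour kidney and 10347 CPM in wild type kidney. Of 6 thick limb and collecting duct markers 3 were higher (11301 CPM in tumour kidney against 5220 CPM in wild type kidney), and of 8 neutrophil markers 2 were higher (20.2 CPM in tumour kidney against 2.15 CPM in wild type kidney). Angptl4, Pdk4 and Pparg are expressed in fat as well. Ucp1, the uncoupler of brown fat, was at 182 counts in tumour kidney against 93 counts in wild type kidney. The part of these cell types in the kidney ratios, that of Ucp3 included, was not tested.

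The tumour change was set between tissues by an interaction in the fit to 9 libraries, added after the data were seen. edgeR called 0 of 16811 genes (99 with unadjusted p below 0.05), and DESeq2 called 8 higher and 1 lower, none among the 9. Angptl4, at 4.36-fold in kidney and between the wild type values in muscle, had a log2 difference of 2.18 (SE 1.00, 95% interval -0.13 to 4.48). Ucp3 had one of 1.65 (SE 1.02) and Pdk4 one of 0.31 (SE 1.06), so no difference between tissues was shown.

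Across the 7 muscle libraries the 9 genes did not move as a block. Pearson correlations of log2 CPM between them, which share libraries, sets and depth and are given as description only, ran from -0.79 between Ucp3 and Ppard to 0.84 between Pdk4 and Ucp3. Acot1 and Acot2 were next at 0.81, and Cpt1b and Ppara at 0.76. Ppara correlated with Pdk4 at -0.02, with Ucp3 at -0.09 and with Angptl4 at -0.21.

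The genes most like each member over these 7 libraries, among 10687 compared, were mostly outside the fat programme. Pdk4 was closest to Exoc2 (exocyst, r = 0.978), Reep1 (0.963) and Efcab6 (0.941). Ucp3 was closest to Loh12cr1 (0.965), Lyrm1 (0.960) and Lrig2 (0.949), and Angptl4 to Prmt2 (0.978), Traf4 (0.973) and Dysf (0.970). Both knockout-labelled libraries were also the lowest of the 7 for Dysf, the membrane repair gene, at 48.8 CPM with DKK1 and 52.4 CPM with PBS, against 83.1 to 95.3 CPM in the other 5. Dysf was picked by its correlation with Angptl4 over the same libraries, so this pattern follows from the choice. Of 15482 genes, 8.67% lay below in this way.

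Cpt1a was closest to Irak2 (0.993), Fmo5 (0.962) and Tapbpl (0.948). Ppara was closest to Six4, Ptpn3 and Apol6 (0.994 each), all of which were higher in every set C library than in any of set B, as in Ptpn3 at 70.2 to 170 CPM in set C against 18.0 to 32.5 CPM in set B. That split follows from their choice by correlation with Ppara, and 15% of 15482 genes lay above in set C. Ppard was closest to Zbtb4 (0.976), Mark2 (0.950) and Txndc11 (0.949). Acot1 was closest to Parp4 (0.935), Ctns (0.933) and Slc10a6 (0.925), and Acot2 to Twf2 (0.9746) and, among others, Sf3b3 (0.952).

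Cpt1b was closest to the read-through gene listed as ChkbCpt1b (0.991), then to Atrnl1 (0.979) and Pigq (0.976). The first is a matter of counting, as Cpt1b (chromosome 15, 89416405 to 89425863) overlaps that read-through. Read-through counts were 95.9% to 98.1% of the sum of Cpt1b and Chkb in every library. Of the 50-base words of Cpt1b, 78.6% were shared with the transcript entry Gm44502, which was not matched to the symbol ChkbCpt1b. The same reads thus appear to have been counted for both Cpt1b and ChkbCpt1b rather than divided between them. Which of the 2 transcripts the reads came from is not known, so the level of Cpt1b is uncertain.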

How the data were processed

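RNA had been sequenced from 2 mouse kidney and 7 muscle libraries. The deposited tables give read counts per gene symbol, not normalised by the authors, a gene length in bases, and the authors' RPKM, used only to check the counts (largest difference 5e-04%). Reads were aligned with HISAT2 2.1.0 to mm10, per the submitters' processing notes. Counter, annotation, strand setting and handling of multi-mapped reads were not given in the sources used here.

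Counts were scaled by TMM within each tissue, and over all 9 libraries for the tissue and tumour-by-tissue tests. Levels per kilobase in both tissues kept the scaling within each tissue. edgeR 4.0.16 in R 4.3.3 was used for quasi-likelihood tests on all 7 muscle libraries (15482 genes) or all 9 libraries (16811 genes), 1 coefficient for each group, on genes kept by filterByExpr (minimum count 10). Benjamini-Hochberg adjustment ran over all genes tested, with a threshold of 0.05. The wild type PBS muscle pair, which spans sets B and C, gives these fits their 1 residual degree of freedom, and the coefficient of variation in muscle was 0.498. A fit to the 4 libraries of set C and the tumour-by-tissue interaction were chosen after seeing the data. In kidney 15986 genes were described by their ratio. The size rule asks for a 2-fold change with at least 100 counts in the library that is higher. Ratios of single libraries carry exact conditional binomial 95% intervals. Figures were drawn with matplotlib 3.10.9.

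The named genes are the 9 genes, up to 3 companion genes in each direction with the largest change past the size rule in a comparison, and the 3 genes with the highest Pearson correlation with each of the 9 over muscle libraries, among genes with 100 or more counts on average. In the set C fit the companion genes named are those with the largest called changes, and Fbxo32, Trim63, Pex11a, Dysf and Ptpn3 were named after their values were seen. Some genes that this rule names are not reported here. The 9 genes and the companion and marker lists were chosen with earlier results of these data known. Alternatives were another scaling, no filter on low counts, DESeq2 1.42.0 and leaving out each wild type PBS muscle library. Only the edgeR comparisons of muscle libraries with the size rule and the additive fit to set C were tried on simulated data. The other methods were not. Gene positions are from GENCODE on GRCm38. No sample numbers pair libraries across groups.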

Additional observations from a re-analysis of the deposited data

How the results depend on the processing

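No paired analysis was possible because no label ties libraries to a shared animal, litter or day. Of the settings planned, scaling by total counts moved the median log2 change of all genes by over 0.1 from that under TMM in every muscle comparison except knockout-labelled PBS against wild type PBS, for example 0.426 against -0.03 with TMM in wild type DKK1. The tissue calls on 5 of the 9 genes held under each scaling, without the filter and with DESeq2. In muscle, total counts gave edgeR 5 called genes for tumour PBS and 1 for knockout-labelled PBS against wild type PBS, and DESeq2 gave 12 for tumour PBS, 11 for tumour MDC, 4 for wild type DKK1 and 19 for knockout-labelled PBS against wild type PBS, 14 for knockout-labelled DKK1 against wild type DKK1 and 3 for the interaction of DKK1 and label. Of the 9 genes by size, tumour MDC against wild type PBS had 1 lower with DESeq2's size factors, 2 with total counts and 1 without the filter. Under total counts knockout-labelled DKK1 had 2 higher against knockout-labelled PBS, and 0 higher and 2 lower against wild type DKK1. Directions of small, uncalled changes reversed. Under total counts these were Angptl4, Acot2 and Ucp3 for tumour PBS against wild type PBS (0.053, 0.031 and 0.11), Acot1, Acot2, Cpt1b and Ppard for MDC against PBS in tumour muscle (-0.024, -0.17, -0.23 and -0.041), Acot2 for tumour MDC against wild type PBS (-0.14), Angptl4 and Acot2 for wild type DKK1 (0.23 and 0.11), Acot2 for knockout-labelled against wild type DKK1 (-0.059), and Cpt1b and Ppara in the interaction (-0.12 and -0.0073). Acot2 for tumour MDC against wild type PBS also reversed with DESeq2's size factors (-0.0087), without the filter (-0.039) and with DESeq2 (-0.0087). Leaving out wild type PBS library 1 or library 2 leaves no residual degrees of freedom, so sizes alone are given. The number of the 9 genes lower by size against wild type PBS was then 0 to 1 for tumour PBS, 2 to 3 for tumour MDC, 0 to 1 for wild type DKK1 and 1 to 4 for knockout-labelled PBS. The number higher was 0 to 2, 0 to 1, 0 to 1 and 0 to 1 in the same order. The log2 change of Ppara without library 2 was 1.19 for tumour PBS, 0.78 for tumour MDC, 3.36 for wild type DKK1 and 2.31 for knockout-labelled PBS. The set C fit, chosen after seeing the data, called 2690 genes for the label and 27 for DKK1. Against the fit to 7 libraries it reversed Ppard for the label under PBS (-0.12), Acot1 and Acot2 for the label under DKK1 (-0.61 and -0.48), and Acot1, Acot2 and Cpt1a for DKK1 (0.20, 0.24 and -0.023), none of them called. Its DKK1 term gave 222 genes with total counts, 369 without the filter and 170 with DESeq2, and Cpt1a for DKK1 reversed under total counts (0.16). Its label term split into 414 higher and 2448 lower under total counts, against 1047 and 1643 with TMM, while Angptl4 and Pdk4 kept their calls in each alternative. Leaving out any library of set C would leave it no residual degrees of freedom. The cause of these shifts was not tested. Depth limits Angptl4 (39 counts) and Acot1 (29 counts) most in muscle.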
